A study of Rattus norvegicus with 10 samples.

Results

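The 33 genes described here encode the enzymes of cholesterol and fatty acid synthesis and their regulators, measured in the jejunum of male Sprague Dawley rats dosed with A-998679. They were chosen by gene symbol as 18 sterol enzymes, 6 genes of sterol regulation and transport and 9 fatty acid genes, and each gene was read from its brightest probe set over the 10 arrays. All 33 had a probe set, and 32 passed a filter that left out the dimmest 40% of probe sets, of 10221 genes named among the probe sets kept. The one gene that did not pass was Fads2, a fatty acid desaturase, which lay between 0.92 and 5.87 on the log2 scale and was not tested.

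A-998679 is an experimental compound that enhances signalling at neuronal nicotinic acetylcholine receptors and was studied as an inducer of drug metabolism. The rats weighed 176 to 200 g per the labels, while the study's methods give a higher weight at the start. Dosed rats were given the compound by mouth each day for 5 days at 30, 100 or 200 mg/kg/day. Control rats were given the vehicle (0.2% hydroxypropylmethylcellulose, 10 ml/kg/day). The study's methods state that food was withheld overnight after the last dose, so all groups were fasted. The vehicle group held 3 arrays, the 30 mg/kg group 2, the 100 mg/kg group 3 and the 200 mg/kg group 2, with 1 rat per array, and the third rats at 30 and 200 mg/kg were not analysed here. The age of the rats was not given in the sources used here.

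Cells build cholesterol from acetyl-CoA through mevalonate, farnesyl diphosphate, squalene and lanosterol, and they build fatty acids from citrate-derived acetyl-CoA through malonyl-CoA. Both sets of enzymes are transcribed under the SREBP factors, which SCAP carries out of the endoplasmic reticulum when sterols are scarce and which the INSIG proteins hold back when sterols are plentiful. The small intestine is a site of cholesterol synthesis as well as of uptake, and fatty acid synthesis is most active in liver and fat tissue.

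Values are log2 of the deposited intensity, on which array medians lay between 5.86 and 5.90. Of 14 enterocyte genes, 13 were on the array and none of them was blank on any array, beside 11.0% to 11.3% of all probe sets. Markers that tell jejunum from other parts of the gut were not compared. Markers of other tissue layers differed between the groups. The summed linear intensity of 14 smooth muscle genes ranged from 19878 to 31916 in vehicle rats and from 15345 to 15578 at 100 mg/kg. That of the adipocyte genes ranged from 1591 to 2294 in vehicle rats, reached 5088 in rat 2 at 30 mg/kg and ranged from 671 to 1215 at 100 mg/kg, with Plin1 and Lep blank on some arrays. In such bulk tissue, fewer cells of a type and less RNA per cell cannot be told apart.

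No member gene passed an adjusted p of 0.05 at any dose, by limma with p-values adjusted (Benjamini-Hochberg) over every probe set kept. Few probe sets of any kind did, namely 0.0113% at 30 mg/kg, 0.0113% at 100 mg/kg, 0.0226% at 200 mg/kg and 0.0226% between 200 and 100 mg/kg. The lowest adjusted p of a member was 0.121, for Insig1 at 100 mg/kg. At an unadjusted p of 0.05, the members past the threshold were 4 of 32 at 30 mg/kg (4.66% of all probe sets), 11 of 31 at 100 mg/kg (18% of all), 5 of 31 at 200 mg/kg (12.4% of all) and 3 of 30 between 200 and 100 mg/kg (6.06% of all). A test over all 3 doses placed 10 of 30 members past the same threshold, beside 15.6% of all probe sets, and called none after adjustment (0.0453% of all probe sets).

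**Figure D1:**
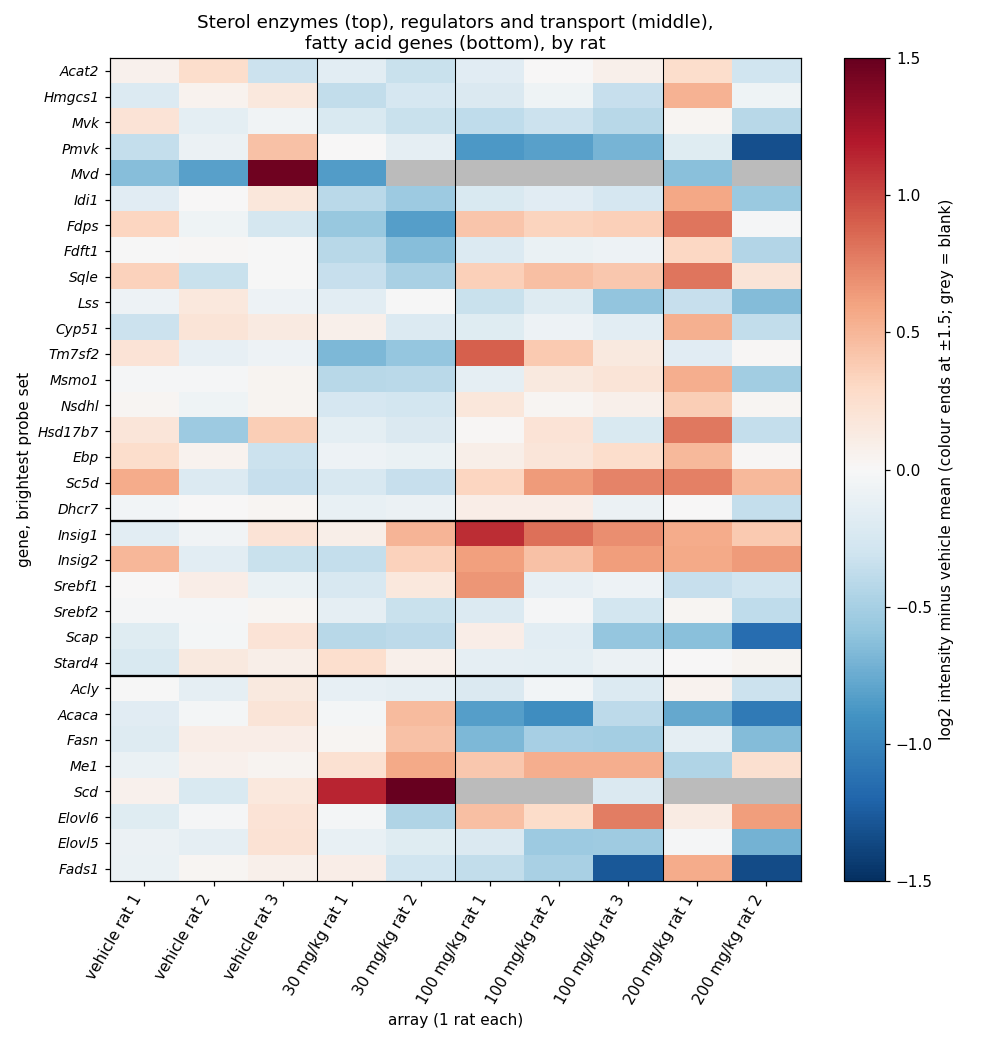
Log2 intensity of the 32 tested genes (rows, grouped by branch) on each of the 10 arrays (columns) minus the mean of the vehicle rats, with red above and blue below vehicle and grey for a blank. All 18 sterol enzymes had a mean below vehicle at 30 mg/kg, that of Mvd from rat 1 alone. Rat 1 at 200 mg/kg stood above rat 2 for 16 of the 17 sterol enzymes with a value on every array.

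The sterol enzymes lay below vehicle together at the lowest dose and showed no common direction at the higher doses. At 30 mg/kg, 18 of 18 had a lower mean than vehicle, beside 48.5% of all probe sets. The median log2 fold change was -0.29 (range -0.84 to -0.06), where the median of all probe sets was 0.01. The low end was Mvd, which was blank in rat 2 at this dose. Its value rested on rat 1, at 4.78, against 4.98, 4.80 and 7.08 with vehicle. Both 30 mg/kg rats were below every vehicle rat for 10 of the 17 enzymes with no blank, beside 9.37% of all probe sets. Only 3 of the 18 had an unadjusted p below 0.05, beside 2.84% of all probe sets in that direction, none was higher at that threshold (1.82% of all), and none was called. The 8 enzymes before squalene had a median of -0.39 and the 10 from squalene onward a median of -0.22. With the smooth muscle score added to the fit the median was -0.27, with the adipocyte score -0.22 and with a liver marker score -0.19.

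Fdps makes farnesyl diphosphate, the branch point between sterols and protein prenylation. Its level (probe set 1367667_at) was 9.69, 9.31 and 9.11 with vehicle, 8.80 and 8.54 with 30 mg/kg, 9.79, 9.70 and 9.72 with 100 mg/kg, and 10.16 and 9.35 with 200 mg/kg. The 30 mg/kg rats were below and the 100 mg/kg rats above all vehicle rats, while the 200 mg/kg rats overlapped them. The log2 fold change was -0.70 at 30 mg/kg (SE 0.25, 1.62-fold lower, limma adjusted p = 1) and 0.37 at 100 mg/kg (SE 0.23, adjusted p = 0.392).

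Tm7sf2 encodes a sterol C14 reductase. Its level (1389725_at) was 6.98, 6.65 and 6.70 with vehicle, 6.11 and 6.20 with 30 mg/kg, 7.68, 7.17 and 6.92 with 100 mg/kg, and 6.61 and 6.80 with 200 mg/kg. Only the 30 mg/kg group stood clear of vehicle, and its log2 fold change was -0.63 (SE 0.22, limma adjusted p = 1). Against the 100 mg/kg rats, the 200 mg/kg rats were lower without overlap, by -0.55 (SE 0.22, limma adjusted p = 0.772).

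Fdft1, the squalene synthase, is the first enzyme committed to sterols. Its level was 8.25, 8.27 and 8.25 with vehicle, 7.85 and 7.62 with 30 mg/kg, 8.05, 8.15 and 8.18 with 100 mg/kg, and 8.57 and 7.81 with 200 mg/kg. On this probe set the vehicle rats lay close together, and both lower dose groups lay below them. At 30 mg/kg the log2 fold change was -0.53 (SE 0.21, limma adjusted p = 1). A dimmer probe set, 1389906_at, was also lower at 30 mg/kg (-0.35, SE 0.26). At 100 mg/kg it went the other way (0.31, SE 0.24), with 8.11, 8.17 and 8.19 against 8.06, 8.00 and 7.49 with vehicle.

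Hmgcs1, the cytosolic synthase that makes HMG-CoA, and Sqle, the squalene epoxidase, were both lowest at the lowest dose. Hmgcs1 (1367932_at) stood at 9.84, 10.10 and 10.20 with vehicle, 9.68 and 9.80 with 30 mg/kg, 9.84, 9.99 and 9.70 with 100 mg/kg, and 10.57 and 9.99 with 200 mg/kg. The 30 mg/kg rats were below all vehicle rats, and the highest value belonged to rat 1 at 200 mg/kg. Sqle stood at 7.07, 6.39 and 6.72 with vehicle, 6.38 and 6.23 with 30 mg/kg, 7.08, 7.18 and 7.13 with 100 mg/kg, and 7.53 and 6.92 with 200 mg/kg. The lowest dose was narrowly below and the 100 mg/kg group narrowly above every vehicle rat. The log2 fold change of Sqle was -0.42 at 30 mg/kg (SE 0.23, limma adjusted p = 1). It was 0.40 at 100 mg/kg (SE 0.21, limma adjusted p = 0.327) and 0.50 at 200 mg/kg (SE 0.23, adjusted p = 0.429). With the smooth muscle score in the fit, the values at the higher doses were 0.16 and 0.32 for Sqle, and Fdps stood at 0.23 at 100 mg/kg.

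The promoters of 6 of these genes are shown as examples from steps along the pathway, with the regulator Insig1, beside the values of those genes. Each line gives a stretch of 100 bases before the start site, 5′ to 3′ on the gene's strand, from RefSeq on GRCr8. It begins 193 bases before the start for Hmgcs1, 135 for Fdps, 166 for Sc5d and 100 for Idi1, Tm7sf2 and Insig1. For Hmgcs1, Fdps and Sc5d the stretch begins shortly before its first match, so the matches printed there follow from that placement. Capitals mark CCAAT, the box bound by NF-Y, or CACGTG, the E-box, on either strand, so that ATTGG is CCAAT read from the other strand. The stretches are Hmgcs1 at chr2:53382111-53382210 (plus strand), Fdps at chr2:176804852-176804951 (minus), Idi1 at chr17:66547525-66547624 (minus), Sc5d at chr8:51538344-51538443 (minus), Tm7sf2 at chr1:212789542-212789641 (minus) and Insig1 at chr4:8057770-8057869 (minus).
Hmgcs1: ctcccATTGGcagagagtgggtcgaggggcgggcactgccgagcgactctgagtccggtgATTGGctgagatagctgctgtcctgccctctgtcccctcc
Fdps: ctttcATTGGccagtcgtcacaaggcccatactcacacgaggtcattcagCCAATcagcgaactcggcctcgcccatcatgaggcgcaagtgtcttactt
Idi1: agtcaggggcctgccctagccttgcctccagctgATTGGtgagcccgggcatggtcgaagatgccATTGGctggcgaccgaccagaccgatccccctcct
Sc5d: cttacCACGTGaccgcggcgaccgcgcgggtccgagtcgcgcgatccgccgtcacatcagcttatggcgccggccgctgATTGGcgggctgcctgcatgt
Tm7sf2: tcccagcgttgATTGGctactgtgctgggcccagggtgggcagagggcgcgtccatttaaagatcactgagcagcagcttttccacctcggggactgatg
Insig1: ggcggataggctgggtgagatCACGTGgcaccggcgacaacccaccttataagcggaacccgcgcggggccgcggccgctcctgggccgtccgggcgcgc
Hmgcs1, Fdps and Idi1 each carried a pair of CCAAT boxes in these stretches, Tm7sf2 carried 1, Sc5d carried an E-box and a CCAAT box, and Insig1 carried an E-box 79 bases before its start. RefSeq windows of 250 bases before to 50 after the start were at hand for 26 of the 33 members, and for Pmvk, Fdft1, Sqle, Stard4, Fasn, Acaca and Elovl6 none was used. CCAAT occurred in 19 of the 26 members (73.1%), among them 12 of 15 sterol enzymes and 3 of 6 fatty acid genes, and in 37.5% of all 33469 windows. CACGTG occurred in 4 members (15.4%), Elovl5, Insig1, Sc5d and Scap, and in 6.42% of all windows. The sterol element TCACNCCAC occurred in no member and in 1.12% of all windows, which says only that these letters are not in the windows searched. The matches did not overlap each other in any printed stretch, and a match is a description of the sequence.

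The sterol enzymes had no common direction at 100 mg/kg. Of 17 tested, 8 were above and 9 below vehicle, and the median was -0.01 (range -0.79 to 0.57). Mvd, which makes isopentenyl diphosphate, was blank on all 3 arrays at this dose and was not tested there. Before squalene 6 of 7 had a lower mean, with Fdps the exception, and from squalene onward 7 of 10 had a higher one, a contrast that was not tested. It also depended on the probe set. Dimmer probe sets gave 0.37 for Idi1, 0.31 for Fdft1, -0.10 and -0.24 for Sc5d and -0.22 for Nsdhl, each opposite to the brightest. The dimmer probe set of Cyp51 kept its direction. Once the smooth muscle score was in the fit, 5 of 7 before squalene and 7 of 10 after it were higher, so the contrast was not seen there. That score was -0.87 to -0.85 in the 100 mg/kg rats and -0.55 to 0.29 in the vehicle rats. Dose and score are thus hard to separate in fits at 100 mg/kg. Lower means were found for 48.9% of all probe sets at this dose. Unadjusted p was below 0.05 for 2 higher enzymes (8.6% of all probe sets) and 3 lower ones (9.43% of all).

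The lower ones were Pmvk, Lss and Mvk. Pmvk, the kinase that makes mevalonate diphosphate, was 6.81, 7.08 and 7.61 with vehicle, 7.18 and 7.04 with 30 mg/kg, 6.31, 6.35 and 6.47 with 100 mg/kg, and 6.99 and 5.84 with 200 mg/kg. The 100 mg/kg rats were below all vehicle rats, and the log2 fold change was -0.79 (SE 0.30, limma adjusted p = 0.237). With the smooth muscle score in the fit this value was -0.01 (SE 0.41), and the part of muscle in it was not tested further. Lss, which closes the ring of lanosterol, was 6.99, 7.22 and 6.98 with vehicle, 6.90 and 7.05 with 30 mg/kg, 6.73, 6.87 and 6.46 with 100 mg/kg, and 6.72 and 6.42 with 200 mg/kg. Both higher doses lay below all vehicle rats, by -0.37 at 100 mg/kg (SE 0.15, limma adjusted p = 0.260) and -0.49 at 200 mg/kg (SE 0.17, adjusted p = 0.311). With that score the 100 mg/kg value of Lss was -0.24. Mvk, the mevalonate kinase, had a log2 fold change of -0.37 at 100 mg/kg (SE 0.15, limma adjusted p = 0.262). With that score the value of Mvk was -0.49 (SE 0.26).

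The higher ones were Tm7sf2 (log2 fold change 0.48, SE 0.20, limma adjusted p = 0.263) and Sc5d. Sc5d encodes lathosterol oxidase, and its value at 100 mg/kg was 0.57 (SE 0.24, limma adjusted p = 0.266). Its vehicle rats were 8.72, 7.96 and 7.82, so the difference depended on vehicle rat 1, and without that rat it was 0.84 (adjusted p = 0.0254). The other probe sets of Sc5d gave -0.10 and -0.24 at this dose, against 0.57 from the brightest one. Fitted with the smooth muscle score, Sc5d stood at -0.05 (SE 0.33) and Tm7sf2 at 0.16 (SE 0.32), each smaller in size than its SE. Neither had a clear direction in that fit. The remaining sterol enzymes, Acat2, Idi1, Cyp51, Msmo1, Nsdhl, Hsd17b7, Ebp and Dhcr7, had unadjusted p above 0.05 in every comparison.

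At 200 mg/kg the median of the sterol enzymes was 0.01, with 10 above and 8 below vehicle, and this dose joined rats that differed widely. Mvd, among those below, rested on rat 1 there, since rat 2 was blank. Unadjusted p was below 0.05 for Sc5d among the higher enzymes (5.73% of all probe sets) and for Lss among the lower ones (6.68% of all). Rat 1 was above rat 2 for 16 of the 17 enzymes with a value on every array, beside 51% of all probe sets, by a median of 0.58 on the log2 scale (range -0.19 to 1.16). Before squalene it was above for 7 of 7, by a median of 0.76. Rat 1 had the highest value of all 10 arrays for 11 of the 17 enzymes, and rat 2 the lowest for 7. Idi1, the isomerase that feeds Fdps, was 9.11 in rat 1 and 7.97 in rat 2, against 8.36, 8.53 and 8.69 with vehicle. Msmo1, a methylsterol oxidase of the same pathway, was 9.79 and 8.73, on either side of its vehicle rats at 9.23, 9.23 and 9.28. The mean over the 17 enzymes, as a log2 difference from vehicle, was 0.36 in rat 1 and -0.27 in rat 2. The 3 rats at 100 mg/kg lay between -0.04 and 0.04, and the vehicle rats between -0.05 and 0.06. The liver markers also differed between these rats, at 0.41 in rat 1 and -1.52 in rat 2, and the smooth muscle markers stood at -0.47 and -0.79. Of the epithelial lists, the enterocyte markers stood at -0.15 and 0.54 and the proliferating crypt markers at 0.04 and -0.51. Their part in the difference between the rats was not tested. With rat 2 left out the median of the sterol enzymes at 200 mg/kg was 0.43, and with rat 1 left out it was -0.36, so no direction can be given for this dose.

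Against the 100 mg/kg rats, 13 of 17 sterol enzymes had a higher mean at 200 mg/kg, beside 51.3% of all probe sets, with a median of 0.06, and 4 had a lower one, beside 48.7%. This median was -0.27 without rat 1 at 200 mg/kg and 0.41 without rat 2, so its direction rests on these rats. None of the higher ones had an unadjusted p below 0.05 (2.71% of all probe sets), and of the lower ones Tm7sf2 did (3.35% of all). Hmgcs1 gave the smallest p among the higher ones (log2 fold change 0.44, SE 0.20, limma adjusted p = 0.840). Without rat 1 at 200 mg/kg its value was 0.15.

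**Figure D2:**
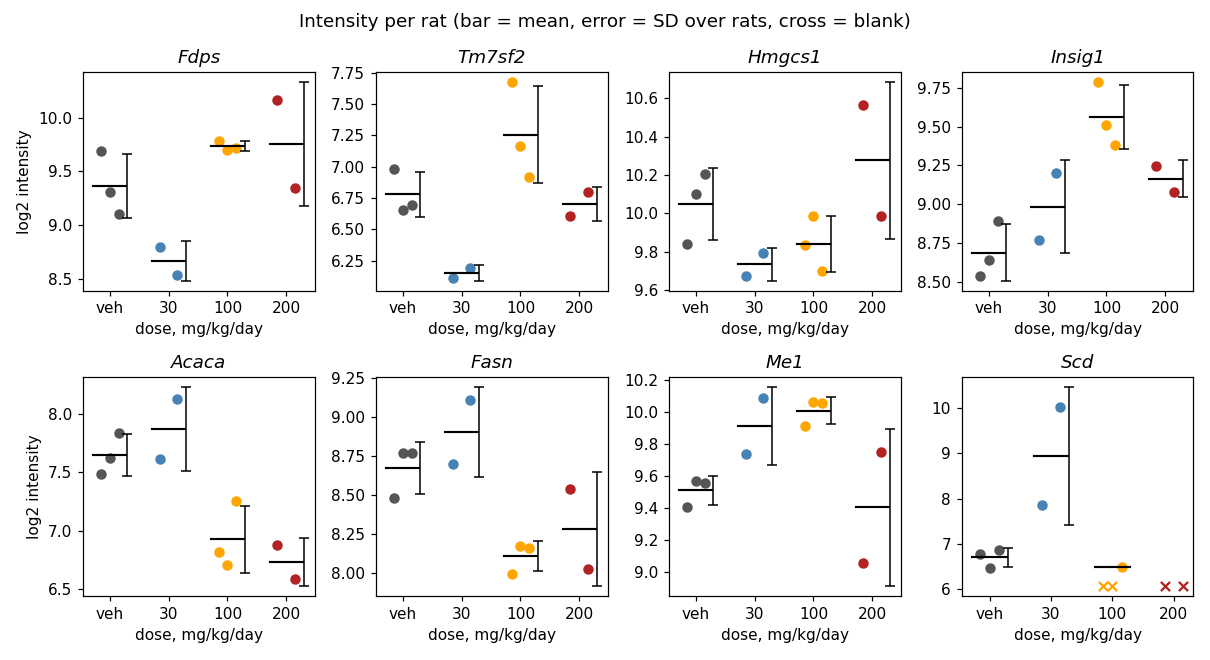
Log2 intensity of 8 genes in each rat (points) by dose in mg/kg/day, with the group mean (bar) and the SD over rats (error bar), and a cross for a blank. Fdps was lowest at 30 mg/kg, Insig1 was above vehicle at 100 and 200 mg/kg, Acaca was below vehicle at both higher doses, and Scd reached 10.01 in rat 2 at 30 mg/kg.

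Among the regulators, the Insig genes gave the highest values against vehicle at the higher doses and Scap the lowest. Insig1 encodes the endoplasmic reticulum protein that retains SCAP, and it is itself a target of SREBP. Its level (1367894_at) was 8.53, 8.64 and 8.89 with vehicle, 8.77 and 9.20 with 30 mg/kg, 9.79, 9.51 and 9.38 with 100 mg/kg, and 9.25 and 9.08 with 200 mg/kg. All 5 rats at the higher doses were above all vehicle rats. The log2 fold change was 0.87 at 100 mg/kg (SE 0.17, 1.83-fold higher, limma adjusted p = 0.121) and 0.48 at 200 mg/kg (SE 0.19, adjusted p = 0.369). It was called at 100 mg/kg without vehicle rat 1 (0.80, adjusted p = 0.0379), and with array weights (0.92, adjusted p = 0.0017), and under the other alternatives its adjusted p reached up to 0.493.

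Insig2, its paralogue, was 0.56 above vehicle at 100 mg/kg (SE 0.25, limma adjusted p = 0.276) and 0.60 at 200 mg/kg (SE 0.27, adjusted p = 0.416). Its 200 mg/kg rats did not overlap with vehicle, while at 100 mg/kg vehicle rat 1, at 7.84, lay among the dosed rats. Without that rat the 100 mg/kg value was 0.81 (limma adjusted p = 0.0449). A dimmer probe set of Insig2, 1389377_at, gave smaller values with all rats, 0.10 at 100 mg/kg (SE 0.19) and 0.20 at 200 mg/kg (SE 0.21). The brightest probe set of Insig2, fitted with the smooth muscle score, stood at -0.27 at 100 mg/kg (SE 0.24) and near 0 at 200 mg/kg. Dose and score are hard to separate at 100 mg/kg, so that fit gives no clear direction.

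Srebf2, the SREBP gene that drives the sterol enzymes, varied little over the groups. It was 9.04, 9.03 and 9.09 with vehicle, 8.92 and 8.72 with 30 mg/kg, 8.85, 9.04 and 8.78 with 100 mg/kg, and 9.09 and 8.68 with 200 mg/kg. Only the 30 mg/kg group did not overlap with vehicle (log2 fold change -0.24, SE 0.16, limma adjusted p = 1). Srebf1, which also serves fatty acid synthesis, was 8.18, 8.28 and 8.07 with vehicle, 7.94 and 8.33 with 30 mg/kg, 8.83, 8.05 and 8.11 with 100 mg/kg, and 7.83 and 7.87 with 200 mg/kg. On this probe set, the 200 mg/kg rats were below the other groups' rats. The difference was -0.32 against vehicle (SE 0.24, limma adjusted p = 0.587) and -0.48 against 100 mg/kg (SE 0.24, adjusted p = 0.874). A dimmer probe set of Srebf1, 1371104_at, gave 0.08 against vehicle at 200 mg/kg (SE 0.35). Its rats there, at 6.82 and 7.21, lay among the vehicle rats at 7.47, 6.98 and 6.36. It gave 0.69 at 100 mg/kg (SE 0.31) and -0.61 between 200 and 100 mg/kg (SE 0.35).

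Scap, the escort protein of the SREBPs, was 6.68, 6.84 and 7.07 with vehicle, 6.44 and 6.47 with 30 mg/kg, 6.96, 6.70 and 6.28 with 100 mg/kg, and 6.23 and 5.72 with 200 mg/kg. The 200 mg/kg rats were below every other rat. The log2 fold change was -0.89 against vehicle (SE 0.24, 1.85-fold lower, limma adjusted p = 0.232) and -0.68 against 100 mg/kg (SE 0.24, adjusted p = 0.667). A dimmer probe set for Scap, 1384464_at, lay the other way at 200 mg/kg, at 0.54 (SE 0.20, limma adjusted p = 0.32), so the gene has no settled direction. Stard4, a carrier of cholesterol between membranes, stayed between -0.13 and 0.16 of vehicle.

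The fatty acid genes had a median near vehicle at the lowest dose and below it at the higher doses. At 30 mg/kg, 4 of 8 were above and 4 below vehicle, with a median of 0.06 (range -0.24 to 2.22), and 2 of 8 were above vehicle in both rats, beside 7.39% of all probe sets. Of 8 genes 6 were below at 100 mg/kg, with a median of -0.33, and at 200 mg/kg 6 of 7 were below, with a median of -0.36, while 48.9% and 49.1% of all probe sets were lower at these doses. Every 100 mg/kg rat was below every vehicle rat for 4 of 7 genes with no blank, beside 13.5% of all probe sets, and above for 2 of 7, beside 11.5%. With the smooth muscle score in the fit the medians were -0.08 at 100 mg/kg and -0.13 at 200 mg/kg.

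**Figure D3:**
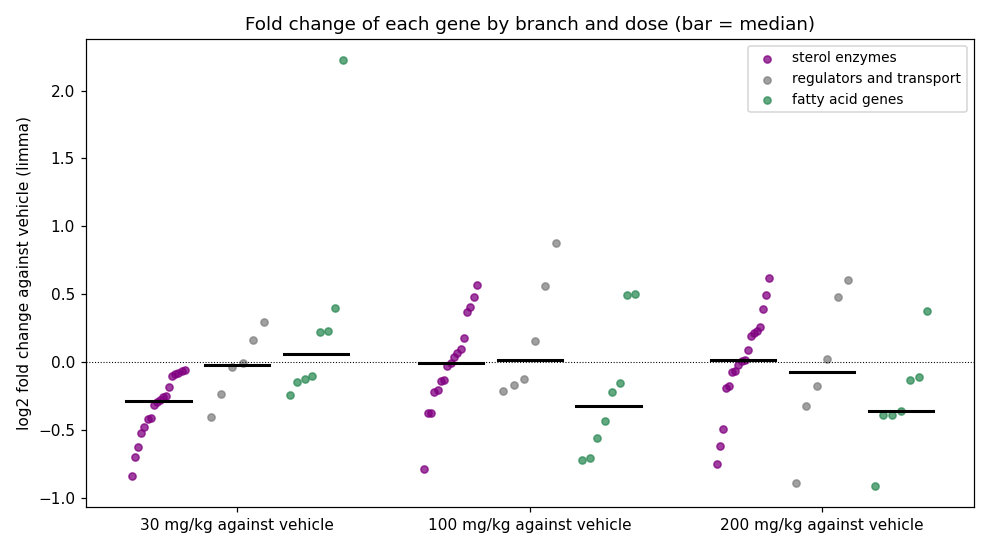
Log2 fold change against vehicle from limma (vertical axis) of each gene (point) at each dose, coloured by branch, with the branch median as a bar. The sterol enzymes had medians of -0.29, -0.01 and 0.01 at 30, 100 and 200 mg/kg, and the fatty acid genes 0.06, -0.33 and -0.36.

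Acaca encodes acetyl-CoA carboxylase, which makes malonyl-CoA and sets the pace of fatty acid synthesis. Its level (1370893_at) was 7.48, 7.62 and 7.83 with vehicle, 7.62 and 8.12 with 30 mg/kg, 6.81, 6.71 and 7.25 with 100 mg/kg, and 6.88 and 6.59 with 200 mg/kg. All 5 rats at the higher doses were below all vehicle rats. The log2 fold change was -0.72 at 100 mg/kg (SE 0.20, 1.65-fold lower, limma adjusted p = 0.185) and -0.91 at 200 mg/kg (SE 0.23, 1.88-fold lower, adjusted p = 0.228). A dimmer probe set of the gene, 1387538_at, gave 0.63 (SE 0.36, limma adjusted p = 0.37) and 0.51 (SE 0.41, adjusted p = 0.61) at these doses. The mean of its probe sets was thus -0.05 and -0.20, so the probe sets of Acaca disagree on direction. With the adipocyte score in the fit the brightest gave -0.37 at 100 mg/kg.

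Fasn, the fatty acid synthase, was read by a pair of probe sets that went the same way. The brighter one (1367708_a_at) was 8.48, 8.77 and 8.77 with vehicle, 8.70 and 9.11 with 30 mg/kg, 8.00, 8.17 and 8.16 with 100 mg/kg, and 8.54 and 8.02 with 200 mg/kg. The 100 mg/kg rats were below all vehicle rats, by -0.56 (SE 0.18, 1.48-fold lower, limma adjusted p = 0.209), and the 200 mg/kg rats overlapped with vehicle (-0.39, SE 0.20, adjusted p = 0.462). The dimmer probe set, 1367707_at, gave -0.75 at 100 mg/kg (SE 0.33, limma adjusted p = 0.28) and 1.03 at 30 mg/kg (SE 0.37, adjusted p = 1). Without rat 1 at 200 mg/kg the 200 mg/kg value of Fasn was -0.65, and without rat 2 it was -0.13. With the smooth muscle score in the fit the values were -0.30 at 100 mg/kg and -0.20 at 200 mg/kg.

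Acly, which splits citrate into cytosolic acetyl-CoA, varied little. It was 8.54, 8.43 and 8.70 with vehicle, 8.43 and 8.43 with 30 mg/kg, 8.34, 8.51 and 8.36 with 100 mg/kg, and 8.61 and 8.23 with 200 mg/kg, and all dose groups overlapped with vehicle.

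Me1, the cytosolic malic enzyme that supplies NADPH, followed another course. It was 9.41, 9.57 and 9.55 with vehicle (1370870_at), 9.74 and 10.08 with 30 mg/kg, 9.91, 10.06 and 10.05 with 100 mg/kg, and 9.05 and 9.75 with 200 mg/kg. Both lower doses were above all vehicle rats, by 0.40 at 30 mg/kg (SE 0.21, limma adjusted p = 1) and 0.50 at 100 mg/kg (SE 0.19, adjusted p = 0.239). Between 200 and 100 mg/kg the difference was -0.60 (SE 0.21, limma adjusted p = 0.667), with no overlap. The other probe set of Me1, 1370067_at, gave 1.08 at 100 mg/kg (SE 0.33, limma adjusted p = 0.20) and -1.02 between 200 and 100 mg/kg (SE 0.37, adjusted p = 0.71).

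Elongation and desaturation genes did not share a direction. Elovl6, which extends palmitate, was above vehicle in every 100 mg/kg rat (log2 fold change 0.50, SE 0.21, limma adjusted p = 0.260). Its dimmer probe set, 1394401_at, showed no such rise (0.0071, SE 0.47). Elovl5, the elongase of polyunsaturated chains, was below vehicle in every 100 mg/kg rat (-0.43, SE 0.20, limma adjusted p = 0.288). Fads1, the delta-5 desaturase, was also below in all 3 (-0.71, SE 0.44, limma adjusted p = 0.395), and it spanned 7.76 and 5.87 in rats 1 and 2 at 200 mg/kg. When the smooth muscle score was in the fit, the 100 mg/kg values were 0.0016 for Fads1, -0.12 for Elovl5 and 0.72 for Elovl6, and with the adipocyte score Fads1 stood at -1.16.

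Scd, the desaturase that makes oleate, gave the largest fold change of any member. Its level (1370355_at) was 6.78, 6.48 and 6.87 with vehicle and 7.86 and 10.01 at 30 mg/kg. Rats 1 and 2 at 100 mg/kg were blank and rat 3 was 6.49, and both 200 mg/kg rats were blank. Rats at 30 mg/kg were above all vehicle rats, by 2.22 (SE 0.61, 4.67-fold higher, limma adjusted p = 1), and without rat 2 the value was 1.15. The fit at 100 mg/kg dropped the blank arrays and rested on 1 rat (-0.22, SE 0.77, limma adjusted p = 0.892).

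Markers of fat cells varied over the same rats. The mean of the adipocyte genes, as a log2 difference from vehicle, was 0.06 and 1.39 at 30 mg/kg, -0.72, -1.65 and -0.68 at 100 mg/kg, and -0.93 and -0.59 at 200 mg/kg. Adipoq, the fat cell hormone adiponectin, was 5.92, 5.61 and 6.65 with vehicle and 8.57 in rat 2 at 30 mg/kg, the rat with the highest Scd, Acaca and Fasn. Of 9 adipocyte genes 7 were lower at 100 mg/kg, with a median of -1.20, and 13 of 14 smooth muscle genes were lower, with a median of -0.96. With the adipocyte score in the fit, Scd at 30 mg/kg was 1.22 and Fasn at 100 mg/kg was -0.46. The part of fat and muscle in these differences was not tested beyond those fits.

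**Figure D4:**
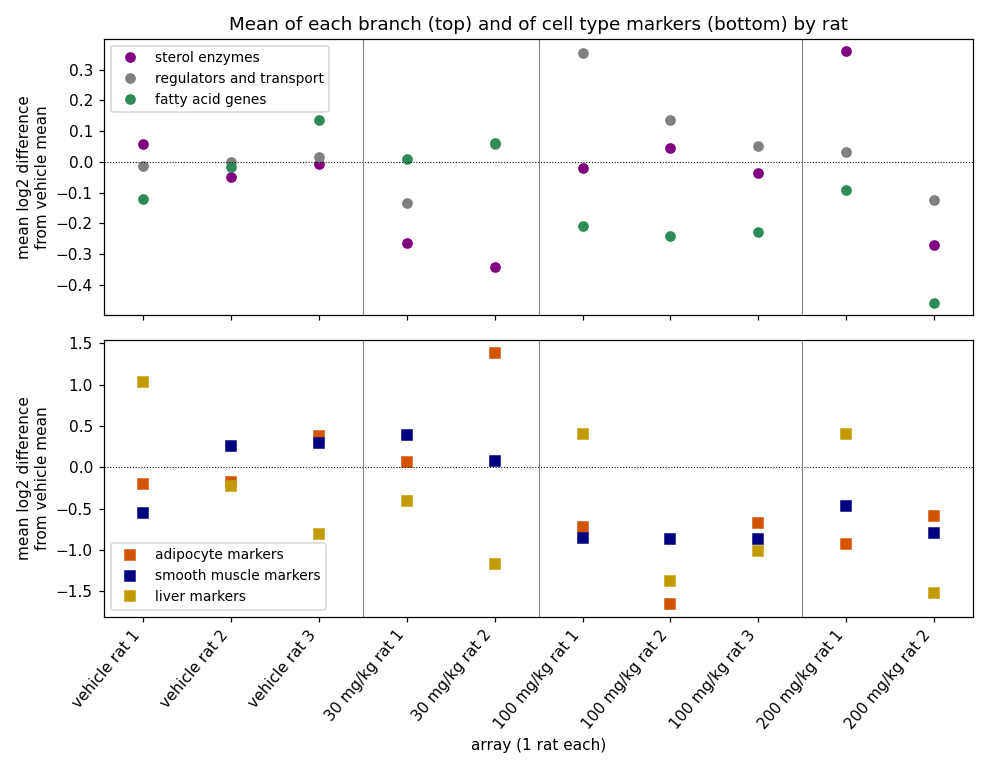
Mean log2 difference from the vehicle mean on each of the 10 arrays, for the 3 gene groups over genes with a value on every array (top) and for adipocyte, smooth muscle and liver markers (bottom). The fatty acid genes stood between -0.24 and -0.21 in the 3 rats at 100 mg/kg, and the sterol enzymes at 0.36 and -0.27 in the rats at 200 mg/kg.

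Set side by side, the branches differed in where their means departed from vehicle. The mean over the 17 sterol enzymes was -0.26 and -0.34 in the 30 mg/kg rats. There the mean over 7 fatty acid genes was 0.01 and 0.06. Those 7 left out Fads2, which was not tested, and Scd, which was blank on some arrays. Scd stood at 7.86 and 10.01 at 30 mg/kg, against 6.78, 6.48 and 6.87 with vehicle, so the fatty acid mean does not show its rise. At 100 mg/kg the sterol means were -0.02, 0.04 and -0.04, and the fatty acid means were -0.21, -0.24 and -0.23. In the 200 mg/kg rats the sterol means were 0.36 and -0.27 and the fatty acid means -0.09 and -0.46, so that both branches were lower in rat 2. In the vehicle rats the sterol means were 0.06, -0.05 and -0.01 and the fatty acid means -0.12, -0.02 and 0.14. The fatty acid mean of rat 1 at 200 mg/kg thus lay among the vehicle rats. With the smooth muscle score in the fit, the fatty acid median at 100 mg/kg was -0.08, against -0.33 without it. The pooled SD within groups was 0.19 for the sterol enzymes and 0.13 for the fatty acid genes. These means carry no test, and all comparisons with vehicle shared the same 3 vehicle rats.

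Genes of sterol uptake, efflux and sensing outside the 33 were also measured. Of 26 listed, 21 were tested, and 9, 16 and 14 were above vehicle at 30, 100 and 200 mg/kg, beside 51.5%, 51.1% and 50.9% of all probe sets, with none called. The smallest p belonged to Scarb1, a lipoprotein receptor that also takes up dietary lipid, which was 9.86, 9.24 and 8.76 with vehicle, 10.41, 10.44 and 10.36 at 100 mg/kg, and 10.05 and 10.57 at 200 mg/kg. Both groups were above all vehicle rats, by 1.12 (SE 0.28, limma adjusted p = 0.157) and 1.02 (SE 0.31, adjusted p = 0.276). Abcg8, part of the pump that returns sterols to the gut lumen, was 1.03 above vehicle at 100 mg/kg (SE 0.45, limma adjusted p = 0.274) and overlapped with it.

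Of 30 further lipogenic and lipid-handling genes, 25 were tested, with none called. Of these, 10, 16 and 15 were above vehicle at 30, 100 and 200 mg/kg, beside 51.5%, 51.1% and 50.9% of all probe sets. At an unadjusted p of 0.05, 3 were higher (8.6% of all probe sets) and 1 lower (9.43% of all) with 100 mg/kg. With 200 mg/kg, 3 were higher (5.73% of all) and 2 lower (6.68% of all). Acss2, which makes acetyl-CoA from acetate, was lower at 100 mg/kg, at 8.70, 9.03 and 8.84 against 9.12, 9.62 and 9.86 with vehicle (log2 fold change -0.67, SE 0.20, limma adjusted p = 0.196). Pnpla2, the lipase that opens triglyceride breakdown, stood at 0.60 (SE 0.23, limma adjusted p = 0.239) and Cyb5a, the electron donor of desaturases, at 0.66 (SE 0.25, adjusted p = 0.239). The higher ones at 200 mg/kg included Hacd2, a dehydratase of chain elongation, at 0.70 (SE 0.24, limma adjusted p = 0.308) and Fads3, a desaturase, at 0.57 (SE 0.18, adjusted p = 0.292). Plin2, a lipid droplet coat protein, was 10.07 in both 200 mg/kg rats and at least 10.30 with vehicle (-0.46, SE 0.16, limma adjusted p = 0.308). Thrsp, a lipogenic nuclear protein, was 9.17 in rat 2 at 30 mg/kg and at most 6.91 on every other array.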

How the data were processed

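Jejunum RNA of 10 rats was hybridised to Affymetrix rat RAE230 2.0 arrays. Per the labels and methods, the authors processed scans in Rosetta Resolver. The deposited values are log10 intensity (the base was inferred from their range) for 29559 probe sets, with 11.0% to 11.3% blank per array, and were converted to log2 here with blanks left missing. The genome build and probe summary method are not given in the sources used here. The authors' table of fold changes (7 columns) was not used, except its gene name for Hmgcs1, since the platform annotation did not list it. That annotation named 1 gene for 19953 probe sets, several for 428 and none for 9178.

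The 11823 dimmest probe sets (40%) were left out, and 17736 were fitted with limma 3.58.1 in R 4.3.3, with 1 mean per group over all 10 arrays, two-sided, and Benjamini-Hochberg adjustment. The fit was tested on simulated data. The study's own error-model calls could not be rerun from these values. The number of arrays sets the precision. A score is the mean log2 difference of a list's genes from the vehicle mean, and a fit with a score adds it as a covariate. Genes described per array were 11 set by name and, per comparison, the 3 sterol and 2 fatty acid members with the smallest p. The members and lists were chosen with earlier results of these data known. The alternatives were other normalizations, filters, floors, probe set choices, covariates, array weights, the methods' t-test, a replicate block and each rat left out.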

Additional observations from a re-analysis of the deposited data

How the results depend on the processing

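No member was called under any alternative at 30 mg/kg, at 200 mg/kg or between 200 and 100 mg/kg. At 100 mg/kg, 13 members were called with array weights and between 0 and 3 with 1 rat left out, the 3 being Insig1, Insig2 and Sc5d without vehicle rat 1. Over all doses 12 were called with array weights and between 0 and 1 with 1 rat left out. Without vehicle rat 1, 2204 probe sets of any kind were called at 100 mg/kg, and array weights called 6967, with a weight of 8.34 for vehicle rat 2 and 0.274 for vehicle rat 1, so neither change is particular to these genes. The cause was not tested.

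The sterol median at 30 mg/kg lay between -0.38 and -0.24 with 1 rat left out and between -0.30 and -0.19 otherwise, and at least 16 enzymes stayed below vehicle each time. With 1 rat left out, the sterol median ranged from -0.36 to 0.43 at 200 mg/kg and from -0.27 to 0.41 between 200 and 100 mg/kg, and the fatty acid median from -0.65 to -0.0125 and from -0.26 to 0.21. The fatty acid median at 30 mg/kg was 0.195 with the liver score, chosen after seeing the data, and -0.10 with no filter, which adds Fads2. At 100 mg/kg it was -0.17 with array weights, -0.50 with blanks and low values at a floor, -0.47 with 16 added before the log, -0.19 with the mean of a gene's probe sets and -0.0781 with the smooth muscle score. At 200 mg/kg it was -0.22 with the liver score, -0.13 with the mean of a gene's probe sets and -0.13 with the smooth muscle score.

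Of 480 gene values recomputed, 474 kept their direction and side of the threshold and 6 passed it, 5 of them with array weights. None was called in the main fit, so a gene could change sides only by being called. A kept direction does not mean a kept size, as for Pmvk at 100 mg/kg, at -0.01 with the smooth muscle score. With the replicate number as a block, 0 members were called in each comparison. Rats with the same number correlated between -0.31 and 0.24, with 4 of 13 pairs above 0.1, so the numbers were not taken to pair them. With 2 or 3 rats per group, differences within the spread of these rats were not detectable.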

Other observations

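The probe sets of a member often differed. Of the 33 members, 14 had over 1 tested probe set, and in 27 of 64 pairs of a dimmer probe set and a comparison the sign was opposite to that of the brightest. Both values were over 0.3 in size in 4 of these pairs, all of them from Acaca or Scap.

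With blanks set to a floor of 3.18, Scd stood 2.43 below vehicle at 100 mg/kg (-2.43, SE 0.87, limma adjusted p = 0.227) and at -3.53 at 200 mg/kg (SE 0.97, adjusted p = 0.241). Mvd, at 4.98, 4.80 and 7.08 with vehicle, stood at -2.44 at 100 mg/kg on that scale (SE 0.70, limma adjusted p = 0.187). These values depend on the floor, and no fold is given for them.

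Immune markers also differed at the lowest and middle doses, beside the genes above. All 6 tested T and B cell markers were below vehicle at 30 mg/kg, with a median of -0.80, beside 48.5% of all probe sets. At 100 mg/kg, 5 of 6 macrophage markers were above vehicle, with a median of 0.94, beside 51.1% of all probe sets. None was called by limma. Of 9 tested markers of proliferating crypt cells, 9, 9 and 8 were below vehicle at 30, 100 and 200 mg/kg. Their medians were -0.19, -0.38 and -0.13, and 48.5%, 48.9% and 49.1% of all probe sets were lower.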
